A study of Mus musculus with 2 samples.

Results

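The genes described here encode the NF-kB transcription factors and the proteins that hold them in check: the subunits Nfkb1, Nfkb2, Rel, Rela and Relb, the inhibitors Nfkbia, Nfkbib and Nfkbie, the kinase Ikbkb and the ubiquitin-editing enzyme Tnfaip3. They were chosen by name, as the non-control array probes whose RefSeq accession maps to one of these symbols. This gave 14 probes for all 10 genes, out of 20618 genes with a named probe on the array. B-cell acute lymphoblastic leukaemia cells were sorted from the bone marrow of C57BL mice aged 8 weeks by the ratio of SoNar fluorescence at its pair of excitation wavelengths. SoNar is a genetically encoded sensor of the balance of NADH and NAD+ in the cytosol, and the sort gave a SoNar-high and a SoNar-low population, with no other treatment in the labels. Total RNA of each population was labelled with Cy3 and hybridised to 1 Agilent array. The sample titles call the same populations N-myc-high and N-myc-low, while the way the leukaemia was induced and the number of mice behind each sort are not stated in those labels.

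NF-kB dimers wait in the cytoplasm bound to IkB proteins. In the canonical branch, receptors such as the TNF, Toll-like and antigen receptors activate the IKK kinase complex, which marks IkB for destruction by the proteasome and frees dimers of Rela, Rel and the processed product of Nfkb1 to enter the nucleus. In the alternative branch, the kinase Map3k14 drives the processing of the Nfkb2 precursor, the partner of Relb. Nfkbia and Tnfaip3 are themselves targets of NF-kB and close a negative feedback loop. In the B lineage the pathway is best known for survival signals and for the maturation of B cells.

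Every value below comes from 1 array a group. No test was possible, so no difference can be set against a spread between replicates, and the scan session cannot be told apart from the group. A level is log2 of the scanner's processed signal minus that array's 75th percentile, and a difference is SoNar-high minus SoNar-low on that log2 scale. Each signal is given with the error that the scanner software estimated for the spot, which covers the array reading and not the biology. For the bright NF-kB probes this error was a nearly constant share of the signal. Each of these probes had a single spot, so the error is not a spread measured between repeat readings. A difference above or below its spot error is therefore compared with an estimate of the software only. The SoNar-low array was the less sensitive, with 44.8% of its 43020 non-control spots above background against 72.9% for the SoNar-high array. A probe passed on both for 10517 genes, which count as measured. Their median difference was -0.17, and the middle 50% of them lay between -0.47 and 0.20. Scaling each array to its median moved all differences by -0.61, and scaling to the 75th percentile of the spots detected on both arrays moved them by 0.21, so each gene is also placed against the median of all measured genes.

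The starts of several of these genes carry the sequence that NF-kB itself binds, and these promoters are shown because genes of the feedback loop are known to be induced through such sites. The table of RefSeq promoters (GRCm38.p6) held 7 of the 10 genes, namely Nfkb2, Rel, Rela, Nfkbia, Nfkbib, Nfkbie and Tnfaip3. The kappa B consensus motif was searched on both strands in the 250 bases before each start, and overlapping matches were counted separately. It was found for 5 of these 7 genes, against 8.23% of the 27025 genes in the table and 7.25% of its 32851 promoters. Rela and Nfkbib had no match in this window, which says only that these letters are not there. The 130 bases before the first listed start follow, 5′ to 3′ on the strand of the gene, with the matches in capitals. Nfkb2 lies at chr19:46304607-46304736 (+), Rel at chr11:23770970-23771099 (-), Nfkbia at chr12:55492648-55492777 (-), Nfkbie at chr17:45555570-45555699 (+) and Tnfaip3 at chr10:19015411-19015540 (-).
Nfkb2: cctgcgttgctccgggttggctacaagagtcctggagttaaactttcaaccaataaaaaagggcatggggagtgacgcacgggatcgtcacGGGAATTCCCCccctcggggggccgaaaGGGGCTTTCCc
Rel: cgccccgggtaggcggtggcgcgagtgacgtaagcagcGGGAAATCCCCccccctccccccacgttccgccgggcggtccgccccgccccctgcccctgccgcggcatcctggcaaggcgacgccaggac
Nfkbia: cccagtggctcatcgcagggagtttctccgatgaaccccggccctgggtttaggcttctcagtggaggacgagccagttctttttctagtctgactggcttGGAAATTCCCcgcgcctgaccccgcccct
Nfkbie: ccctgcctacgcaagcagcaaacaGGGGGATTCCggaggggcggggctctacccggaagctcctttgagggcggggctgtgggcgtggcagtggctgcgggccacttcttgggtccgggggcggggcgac
Tnfaip3: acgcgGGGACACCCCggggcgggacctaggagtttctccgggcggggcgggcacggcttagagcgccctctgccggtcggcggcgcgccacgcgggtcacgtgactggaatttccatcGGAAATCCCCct
In Nfkb2, matches began 39, 38 and 11 bases before the start, and its later starts had 1 match each. Rel had overlapping matches 92 and 91 bases before its start, and the Nfkbia match lay 29 bases before the start. The Nfkbie match began 106 bases before the start, and those of Tnfaip3 began 125 and 12 bases before it. A match is a description of the letters and not evidence of binding in these cells.

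None of the 9 NF-kB genes measured on both arrays reached a 2-fold difference between the sorted populations. Of these 9, 0 were at least 2-fold higher on the SoNar-high array, where 4.87% of all measured genes were, and 0 were at least 2-fold lower, where 1.68% were. Their differences ran from -0.56 for Rela to 0.40 for Nfkb2, with a median of 0.13 against -0.17 for all measured genes. The tenth gene, Rel, passed detection on the SoNar-high array only, as did 26.5% of all genes with a probe. All 9 differences lay within the middle 90% of measured genes, which spanned -0.83 to 0.99.

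**Figure D1:**
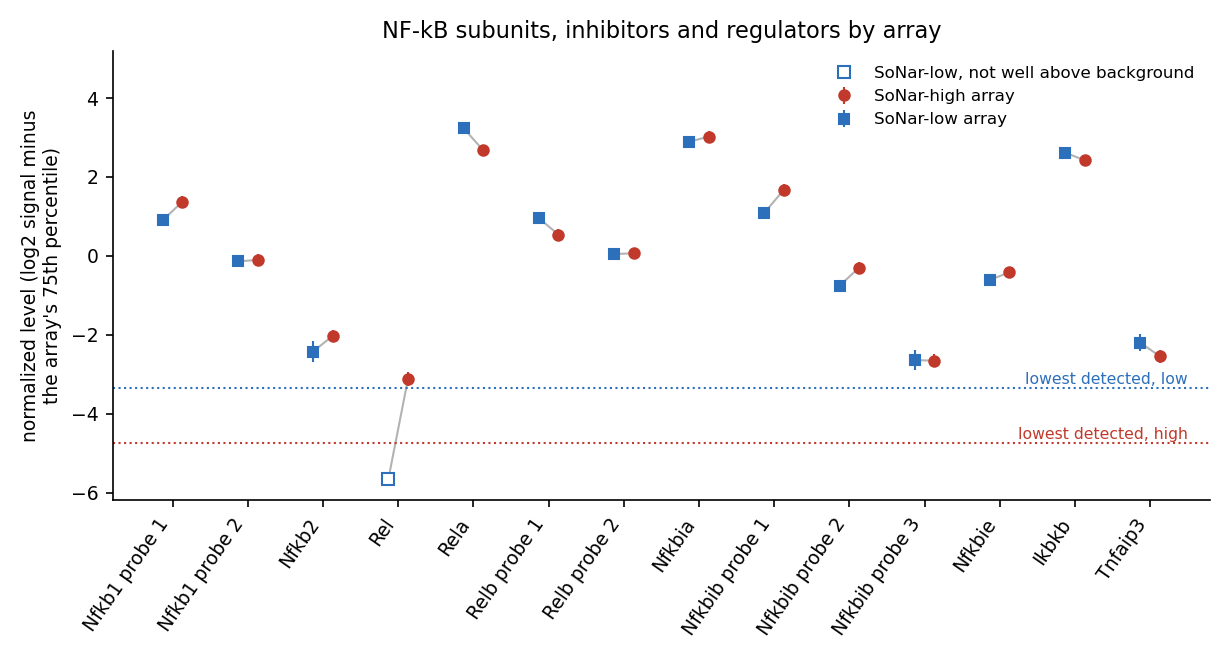
Normalized level (log2 signal minus the array's 75th percentile, y axis) of each of the 14 probes (x axis) on the SoNar-high array (circles) and the SoNar-low array (squares), with the scanner software's spot error as bars and dotted lines at the lowest detected level of each array. Rel is the 1 probe with an open square, not well above background on the SoNar-low array, and the other 13 pairs differ by at most 0.58.

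Rela had the lowest difference of the 9 measured genes. It encodes the subunit that carries most of the transactivating function of the canonical dimer. Its single probe read 3360.4 ± 336 in SoNar-high and 4480.1 ± 448 in SoNar-low cells. The difference was -0.56, a 1.47-fold higher level on the SoNar-low array, and exceeded the spot error of the difference, 0.20. In size it was close to the pooled SD between probes of 1 gene, 0.53. Rela ranked at percentile 18.2 of all measured genes, and among the genes of its own level decile, whose median was -0.34, it ranked at percentile 27.0. It was below 0 and below the all-gene median in each of the 12 settings tried, and the difference ran from -1.17 with median scaling to -0.35. With its single probe, Rela stayed at -0.56 under every filter on dim probes and with the brightest probe. Scalings that shift all genes alike keep a gene's place, and filters keep its difference where its probes pass. Counts of settings, here and below, are therefore not independent support.

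Nfkb1, whose precursor is an inhibitor and whose processed product is the usual partner of Rela, lay on the opposite side. Its first probe read 1362 ± 136 in SoNar-high and 888 ± 89.5 in SoNar-low cells, a difference of 0.47. Its second probe read 489 ± 49.1 and 431 ± 44.6, a difference of 0.04, which is within the spot error of 0.21. Both probes lay above the all-gene median, but the size rests on the first. The mean of 0.25, 1.19-fold, put Nfkb1 at percentile 77.9 of all measured genes. It kept above the all-gene median in 12 of 12 settings, although median scaling took the difference itself to -0.36.

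The gap between the differences of Nfkb1 and Rela was 0.81 on the log2 scale, and it ran from 0.61 to 1.03 over the 12 settings. For comparison, the highest and lowest probe of 1 gene differed by a median of 0.47 over the 2394 genes with several measured probes, and by over 1.25 in the top 10% of them. Repeat spots of 1 probe were closer, with a median SD of 0.15 over 201 probes, but no NF-kB probe was spotted more than once.

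Rel, which encodes c-Rel, the lymphoid subunit, could be given only a bound. Its probe read 60.0 ± 7.21 on the SoNar-high array, where it was well above background. On the SoNar-low array it read 9.41 ± 9.41 and was not well above background. The lowest signal called detected among all non-control spots of that array was 46.4, against 19.7 on the SoNar-high array. Set against that limit, and with the spot errors left out, Rel was at least 1.17-fold higher on the SoNar-high array. The bound became 1.36 when the percentile was taken over spots that both arrays detected. With median scaling or quantile normalization it fell below 1, and no fold can be given.

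Of the alternative branch, Nfkb2 had the highest difference of the 9 genes, and it was also dim. Its probe read 129 ± 13.9 in SoNar-high and 88.4 ± 15.7 in SoNar-low cells, where it was only 1.91 times the lowest detected signal. The difference was 0.40, against a spot error of 0.30. Genes of its level decile also lay high, with a median of 0.18, and within that decile Nfkb2 ranked at percentile 63.8. The sign was not stable, since the difference was -0.03 with quantile normalization, -0.04 with normexp background correction, -0.03 in the authors' deposited table and -0.21 with median scaling. A filter at 2 times the lowest detected signal removed it.

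Relb, its partner, had 2 probes that did not agree. The brighter read 764 ± 76.5 in SoNar-high and 923 ± 93.1 in SoNar-low cells, a difference of -0.42. The other read 549.8 ± 55.1 and 489.7 ± 49.9, a difference of 0.02. Their mean of -0.20 lay at percentile 47.5 of all measured genes, so Relb sat at the centre of the distribution.

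**Figure D2:**
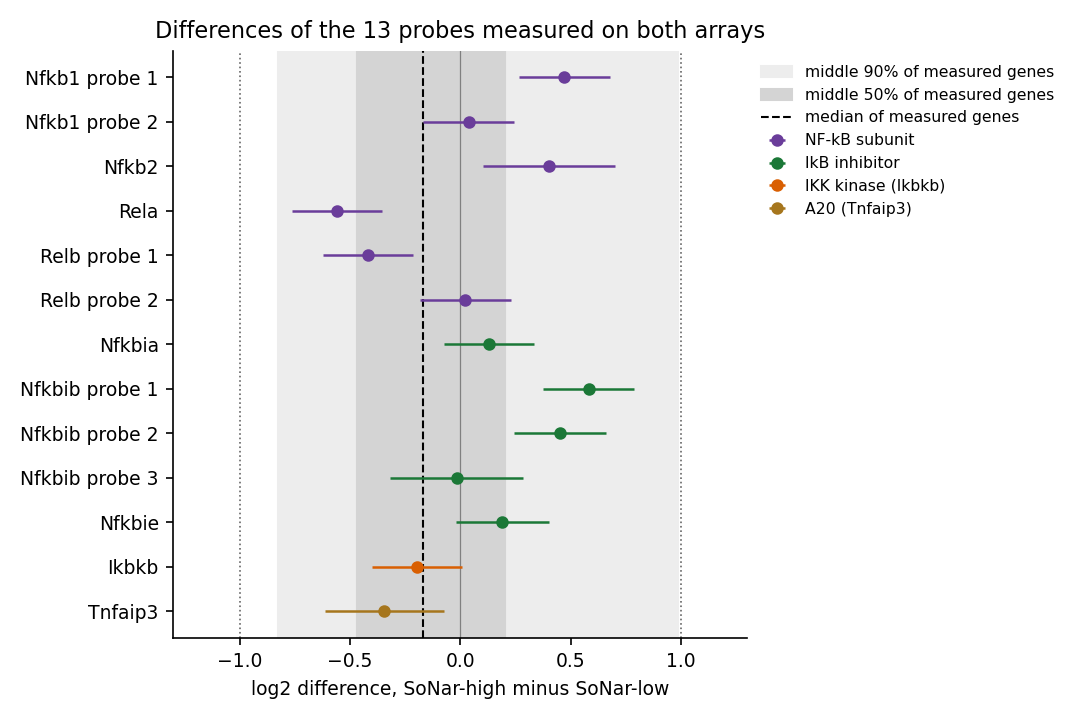
Log2 difference (x axis, SoNar-high minus SoNar-low) of the 13 probes measured on both arrays (y axis), coloured by role, with bars for the spot error of the difference. Shading marks the middle 50% and 90% of all measured genes, the dashed line their median of -0.17 and the dotted lines a 2-fold difference. No probe reaches a dotted line, and Rela and the brighter Relb probe lie lowest.

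The 3 inhibitors all lay above the all-gene median, by 0.30 to 0.51. Nfkbia encodes IkB-alpha, the inhibitor that NF-kB resynthesises fastest, and it gave the brightest signal of the 14 probes on the SoNar-high array. It read 4267 ± 427 there and 3528 ± 353 on the SoNar-low array. The difference of 0.13, 1.09-fold, is within the spot error of 0.20. Bright genes tended to lie low in this comparison, however, and against the -0.34 median of its level decile Nfkbia ranked at percentile 87.5. It was above the all-gene median in 11 of 12 settings, the exception being detection on at least 1 array, where it lay 0.02 below.

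Nfkbib encodes IkB-beta, which is degraded more slowly. Its 3 probes read 1677 ± 168 against 1014 ± 102, 426 ± 42.8 against 282 ± 29.8, and 83.3 ± 9.37 against 76.1 ± 13.4, SoNar-high first. The differences were 0.58, 0.45 and -0.02. The brighter probes thus shared a direction, and the third, whose reading on the SoNar-low array was 1.64 times the lowest detected signal, showed none beyond its error of 0.30. The mean of 0.34, 1.27-fold, lay at percentile 81.5 of all measured genes and above the all-gene median in 12 of 12 settings.

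Nfkbie encodes IkB-epsilon, an inhibitor known chiefly from lymphoid cells. Its probe read 393 ± 39.6 in SoNar-high and 312 ± 33.0 in SoNar-low cells. The difference of 0.19 is within the spot error of 0.21 and lay at percentile 74.4. Median scaling turned the differences of all 3 inhibitors below 0, to -0.48, -0.27 and -0.42 for Nfkbia, Nfkbib and Nfkbie, with their places relative to other genes unchanged.

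The regulators of the inhibitors did not stand out. Ikbkb, the kinase subunit that phosphorylates IkB proteins, read 2814 ± 281 in SoNar-high and 2915 ± 292 in SoNar-low cells. Its difference of -0.20 lay at percentile 47.6 and changed sign between settings. Tnfaip3, which removes activating ubiquitin chains upstream of IKK, read 89.98 ± 10.04 and 103 ± 15.6. Its difference of -0.34 was larger than its spot error of 0.27, and it lay below the all-gene median in 12 of 12 settings, by between 0.12 and 0.69. Quantile normalization took the difference to -0.81 and the authors' deposited table to -0.90. It is a dim probe, at 2.23 times the lowest detected signal of the SoNar-low array. Nfkbia and Tnfaip3, both feedback targets of NF-kB with a motif match before their starts, differed in sign in the main setting, and neither reached 2-fold. The Nfkbia difference of 0.13 was within its spot error. Median scaling put both genes below 0, at -0.48 and -0.96, with their places among all genes unchanged.

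**Figure D3:**
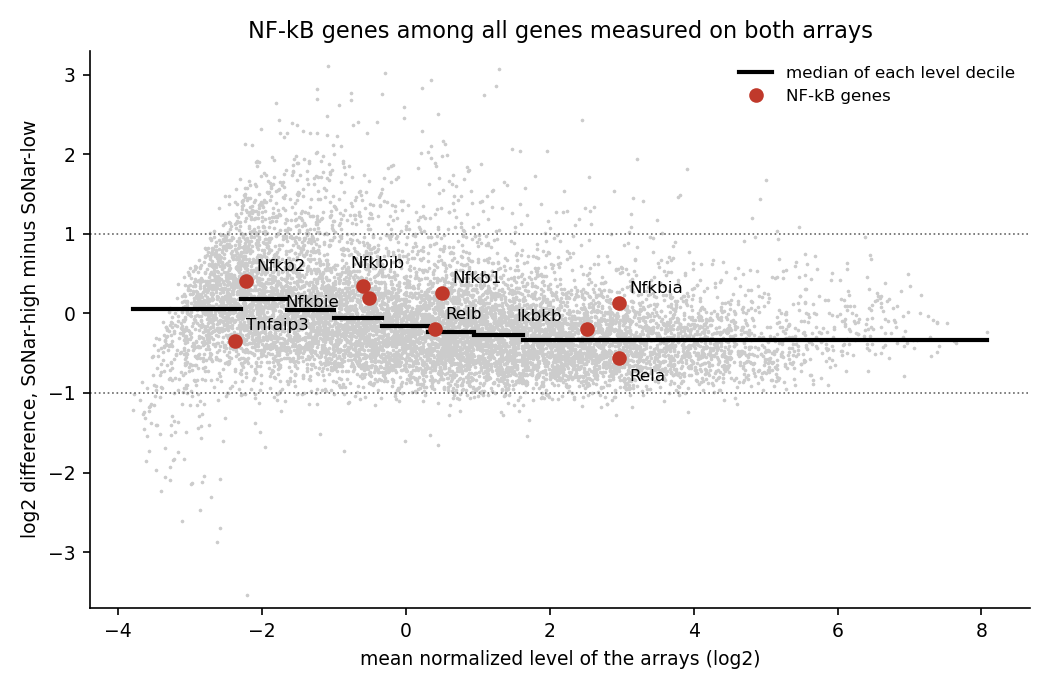
Log2 difference (y axis) against the mean normalized level (x axis, log2) of the 10517 measured genes (grey), with the 9 measured NF-kB genes in red, bars at the median of each level decile and dotted lines at a 2-fold difference. The decile medians run from 0.18 among dim genes to -0.34 among bright ones, and 7 of the 9 NF-kB genes lie above the median of their decile.

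Placed among genes of like level, 7 of the 9 genes lay above the median of their decile and 2, Rela and Tnfaip3, below it. The widest positive distances were those of Nfkb1 with 0.48, Nfkbia with 0.47 and Nfkbib with 0.40, and the negative ones were -0.22 for Rela and -0.40 for Tnfaip3. These distances are of the size of the pooled SD between probes of 1 gene, 0.53, and 6 of the 9 measured genes rest on 1 probe.

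**Figure D4:**
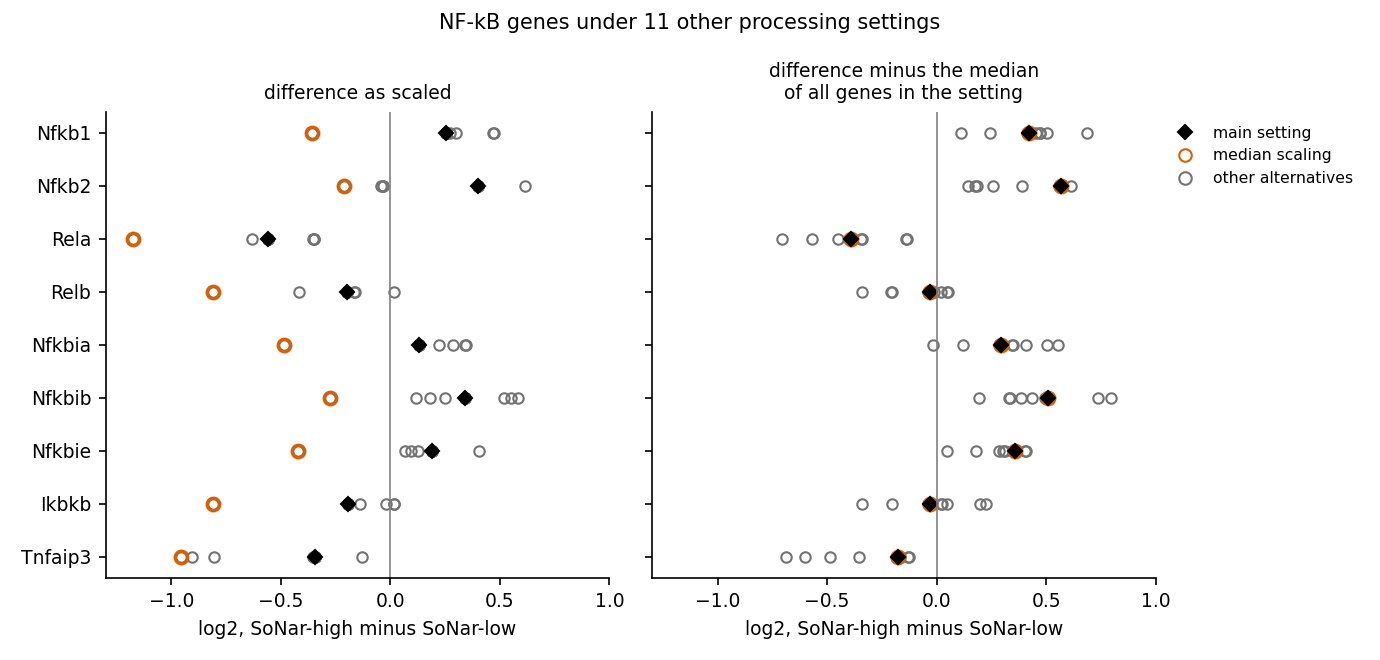
Log2 difference of the 9 measured NF-kB genes (y axis) in the main setting (diamonds), with median scaling (orange circles) and in the other alternatives (grey circles), as scaled (left) and minus the median of all genes in the same setting (right). Median scaling moves all genes below 0 on the left and leaves them in place on the right, where Rela and Tnfaip3 stay left of 0 and Nfkb1, Nfkb2, Nfkbib and Nfkbie stay right of it.

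Upstream of these genes, 8 of 17 receptors and adaptors were measured on both arrays, and 2 were at least 2-fold higher on the SoNar-high array, where 4.87% of all measured genes were. Tlr9, the endosomal receptor for unmethylated DNA, read 1309 ± 131 in SoNar-high and 307 ± 33.0 in SoNar-low cells, a difference of 1.95. Irak2, a kinase of the Toll-like and interleukin receptor pathway, read 1344 ± 134 and 327 ± 34.6 on its brighter probe, a difference of 1.90. Both stayed past 2-fold in 12 of 12 settings. The second Irak2 probe was dim, at 41.2 and 31.4 with a difference of 0.25, and was not well above background on the SoNar-low array. Where the filter admits that probe, without a filter or with detection on at least 1 array, the difference of Irak2 was 1.07. Tlr7 followed at 0.59, and Tradd at -0.88 and Myd88 at -0.34 were the lowest. The distance of the list's median from that of all genes was 0.25, and it turned to -0.07 when each gene was read from its brightest probe. A further 7 receptors or adaptors were detected only on the SoNar-high array, as were 26.5% of all genes with a probe, among them Ltbr, at least 2.12-fold higher, Irak4, at least 1.77-fold, and Tnfrsf13b, at least 1.72-fold. Cd40, Tlr2 and Tnfrsf1b were also in this group, but no fold can be given for them. Median scaling lowers every such bound by 0.61 on the log2 scale.

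The signalling complexes lay slightly low against all measured genes. Values for 21 of 23 genes were obtained on both arrays, with 2 at least 2-fold lower and 0 higher by as much, against 1.68% and 4.87% of all measured genes. Their median of -0.37 lay 0.20 below that of all genes. Bright genes tended to lie low in this comparison, and no list median, here or below, was set against genes of like level. Traf3, the adaptor that holds Map3k14 in check in the alternative branch, read 1227 ± 123 in SoNar-high and 2359 ± 236 in SoNar-low cells, a difference of -1.09. Tab3, an adaptor of the kinase Map3k7, read 591 ± 59.3 and 1122 ± 113, a difference of -1.07. Traf3 was past 2-fold in 9 and Tab3 in 8 of the 12 settings, and in the others they lay between -0.998 and -0.85. Chuk, the second IKK kinase, had a difference of -0.60, and Ikbkg, the scaffold of the IKK complex, one of -0.07. Map3k14 was at -0.42, and of the antigen receptor relay Bcl10 was at -0.37 and Malt1 at -0.59. The highest values were those of Tab2 with 0.36 and Rnf31 with 0.23.

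The proteins that degrade IkB or process the precursors gave 8 measured genes of 8 on the array. None was past 2-fold in either direction, where 4.87% of all measured genes were higher and 1.68% lower by as much. The median of the 8 genes, -0.38, lay 0.21 below that of all genes. Of the 8, 7 were under the all-gene median, a count of 5 to 8 over the settings. Fbxw11, a ligase subunit that recognises phosphorylated IkB, was lowest at -0.79 and Skp1, its adaptor, next at -0.70. Both are bright, and the medians of their level deciles were -0.34 and -0.33. Gsk3b at -0.22 and Fbxw7 at -0.03 were the highest.

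Other inhibitors and nuclear IkB proteins had 11 of 15 genes measured. None was past 2-fold, against 4.87% of all measured genes higher and 1.68% lower by as much. The median of the list, -0.08, lay 0.09 above the all-gene median. That distance turned to -0.14 with the brightest probe and to -0.07 with detection on at least 1 array. Nfkbiz, a nuclear IkB protein that NF-kB induces, was highest at 0.84 from 142 against 72.0 in signal, followed by Nkrf at 0.58. Nfkbiz was dim on the SoNar-low array, where the lowest detected signal was 46.4. The filter at 2 times that signal removed it. Itch, a ubiquitin ligase that works with Tnfaip3, was at -0.58 and Nfkbid at -0.56. Bcl3, Cyld, Zc3h12a and N4bp1 passed detection only on the SoNar-high array, as did 26.5% of all genes with a probe. Their bounds ran from at least 1.14-fold to at least 1.86-fold. Median scaling lowers these by 0.61 on the log2 scale, and no fold can then be given for Bcl3 and Cyld.

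**Figure D5:**
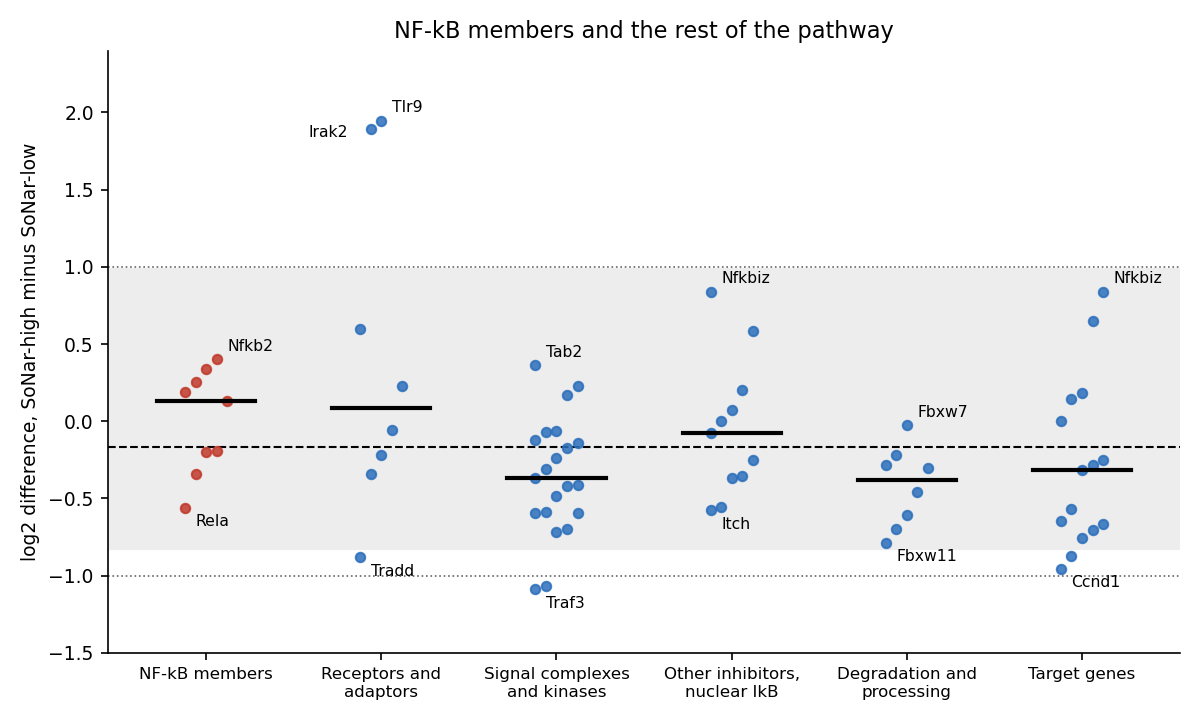
Log2 difference (y axis, SoNar-high minus SoNar-low) of the 9 measured NF-kB genes (red) and of the measured genes of the 5 pathway lists (blue), with bars at the medians, the dashed line at the median of all measured genes, shading over the middle 90% of them and dotted lines at a 2-fold difference. Tlr9 and Irak2 lie above the upper dotted line and Traf3 and Tab3 just under the lower one.

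Of the genes that NF-kB is known to induce, 15 of 35 on the array were measured on both, with a median of -0.31. None was at least 2-fold higher or lower, against 4.87% and 1.68% of all measured genes. Nfkbiz (0.84, dim and also in the previous list) and Icam1, an adhesion molecule, at 0.65 were highest. Ccnd1, a cyclin of the G1 phase, at -0.95 and Ltb, a membrane-bound cytokine of lymphocytes, at -0.87 were lowest. Ccl4, a chemokine, was bright on both arrays, with 25736 in SoNar-high and 21100.3 in SoNar-low cells, and differed by 0.14. The cytokine genes Il1b and Il6, the chemokine genes Cxcl1, Cxcl2 and Cxcl10, and Ier3, Cd83, Cd69 and Ptgs2 stayed below the detection flag on both arrays. Another 11 of the 35 targets passed detection only on the SoNar-high array, where the share over all genes was 26.5%. A filter that asks for detection on at least 1 array lets these in, and took the median of the list to 0.29, which is 0.15 above that of all genes in the same setting.

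The kappa B motif was found before the start of 13 of the 28 target genes in the promoter table. The 5 of these 13 that were measured on both arrays were Ltb at -0.87, Irf1 at -0.76, Stat5a at -0.67, Sod2 at -0.64 and Bcl2l1 at -0.57, all under the all-gene median, as were 10 of the 15 measured targets. Of the NF-kB genes with a match, Nfkb2 at 0.40, Nfkbie at 0.19 and Nfkbia at 0.13 lay above that median and Tnfaip3 at -0.34 below it. Over the whole array, the median was -0.14 for 867 measured genes with a match and -0.17 for 7611 without.

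The leukaemic identity and the admixture of other cells were read from marker lists. B-lineage genes were detected on both arrays for 11 of 15 markers, with Cd79b at 14377 and 12625 in signal, SoNar-high first. Of the markers of the pro-B and pre-B stages, Igll1, Rag1 and Rag2 stayed below the detection flag on both arrays. Vpreb3 at 9345 and 12061, Dntt at 169 and 182 and Vpreb1 at 128 and 118 were detected on both. Vpreb2 passed on the SoNar-high array only, as did 26.5% of all genes with a probe. The median difference of the B-lineage markers was -0.26. Neutrophil markers were detected for 11 of 12 genes on both arrays, with a median of 0.48. Of these, 2 were below 0, S100a9 at -0.15 and Prtn3 at -0.32. The summed signal over the listed genes was 64693 on the SoNar-high array against 44919 on the SoNar-low array. Csf3r alone gave 39790 and 26891 of these sums. Sums, here and below, are not scaled between the arrays. Monocyte and macrophage markers were much dimmer, with 3 of 8 genes measured and sums of 560.4 and 240.3, and Ccr2 not above background on either array. Dendritic cell markers had 2 of 5 genes measured. Siglech, known from the plasmacytoid type, which also uses Tlr7 and Tlr9, read 21220.6 and 9877 on 1 of its 2 probes, a difference of 0.96. Its other probe did not count as measured and read far lower on both arrays, which brought the mean over both probes to 10615 and 4945. The probes thus disagree on the level of Siglech, and its difference rests on 1 of them. Flt3, which progenitors also express, differed by -0.16, while Itgax and Xcr1 were not above background on either array. T cell markers had 4 of 7 genes measured, with sums of 1745 and 1904, and Cd3d not above background on either array. Those 4 went opposite ways, with Cd4 at 1.72 and Cd3e at 1.26 against Lck at -0.94 and Thy1 at -1.31. Natural killer cell markers had 2 of 6 measured, with sums of 417 and 199, and Klrb1c, Gzmb and Klrd1 were below detection on both arrays. Erythroid markers had 3 of 8 measured, with sums of 1476 and 626. In sorted bulk cells, fewer cells of a type and less RNA per cell cannot be told apart. The part of these markers in the values of Tlr9, Irak2 and the NF-kB genes was not tested.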

How the data were processed

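Gene expression was measured on 1 Agilent 1-colour array per group, with groups taken from the source names. The deposited scanner files hold linear spot intensity after background subtraction and spatial detrending, per the file headers. These name Feature Extraction 11.0.1.1, and the submitters' processing notes name version 9.1. The authors' deposited value table holds log2 values with a median of 5.90 in both columns. They correlated with log2 of the processed signal at r = 0.995 (SoNar-high) and 0.994 (SoNar-low). How it was normalized is not stated, and it served as an alternative.

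Control spots and 685 outlier spots were left out. Probes were named through RefSeq accessions (27115 of 39085 kept probes). A gene's value is the mean over its probes well above background on both arrays. The difference was called at 2-fold, with no p-value. A gene detected on 1 array has a bound, its level there against the other array's detection limit, or its own level on that array where higher. The limit is the lowest signal called detected among all non-control spots, and no spot error enters a bound. No columns were left unmapped.

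All NF-kB genes are named, and from each pathway list the 2 highest, the 2 lowest, any past 2-fold and others singled out after their values were seen. The genes and lists were chosen with earlier results of these data known. The scripts were tested on simulated data. Alternatives were 3 scalings, normexp (offset 50, on the median spot signal), 3 filters on dim probes, the brightest probe, outlier spots kept, the deposited table and, added after seeing the data, 1 common detection limit. Python 3.11.15, pandas 2.3.3, R 4.3.3 and limma 3.58.1 were used. Some genes of the lists are not reported here.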

Additional observations from a re-analysis of the deposited data

How the results depend on the processing

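No paired analysis was possible because a single array stood for each population, which leaves none to omit either. A value was taken as moved where it changed by more than 0.53, the pooled SD between probes of a gene, and a count where it changed by over 1.5 times. The NF-kB genes at least 2-fold higher went from 0 to 1 with no filter on dim probes and to 1 with detection on at least 1 array, which is Rel in both. Those at least 2-fold lower went from 0 to 1 with median scaling, which is Rela at -1.17. Median scaling took the median of the NF-kB genes from 0.13 to -0.48 and that of all genes from -0.17 to -0.78, and left their distance of 0.30 as it was. Tnfaip3 moved to -0.90 in the authors' deposited table, where the cause was not tested. Detection on at least 1 array took the distance of the receptors from the all-gene median from 0.25 to 0.93, since it admits genes that only the SoNar-high array detected. Against 512 genes at least 2-fold higher, the count was 139 with median scaling, 806 with the percentile of spots that both arrays detected, 262 with normexp, 2775 without a filter, 337 with the stricter filter and 3203 where detection on either array sufficed. Against 177 lower genes it was 3306, 67, 60 and 1751 in the first 4 of these, 350 with quantile normalization, 430 in the deposited table and 114 with the common limit. The other distances of pathway lists moved by less than 0.53. Among the NF-kB genes, depth of signal limits Nfkb2, Tnfaip3, Rel and the dimmest Nfkbib probe most.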

Other observations

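Tnip1, a binding partner of Tnfaip3, had probes that pointed opposite ways. One read 11998 ± 1200 in SoNar-high and 4851 ± 485 in SoNar-low cells, a difference of 1.16, and the other read 880 and 1616, a difference of -1.02. The mean of 0.07 hides this. Over the whole array 5 genes had 1 measured probe at least 2-fold higher and another at least 2-fold lower. Tnip1 was the 1 gene of the NF-kB lists among them. Probes that disagree by less than this are not in that count. Which transcripts these probes report was not analysed here.

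Irak1, a kinase that acts beside Irak2, also had probes on both sides of 0, from -0.64 to 0.73 over 3 probes with a mean of 0.23. Map3k7 ran from -0.60 to 0.38 over its 3 probes, and Gsk3b from -0.86 to 0.24.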
